A study of Mus musculus with 9 samples.

Results

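The miRNAs described here come from the miR-465, miR-463, miR-470 and miR-471 genes, which lie in a cluster on the mouse X chromosome. They were taken by name alone, as every entry of the table that starts with miR-465, miR-463, miR-470 or miR-471, and this gave 10 of the 358 miRNAs measured. The miRNAs were miR-463-5p, miR-465a-3p, miR-465b-3p, miR-465c-3p, miR-465a-5p, miR-465b-5p, miR-465c-5p, miR-470-3p, miR-470-5p and miR-471-5p. Since miR-465a-3p, miR-465b-3p and miR-465c-3p have the same mature sequence and drew on the same reads, the 10 names stood for 8 separate measurements. miR-465d was not analysed here.

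The small RNA was sequenced from epididymosomes, membrane vesicles that the epithelium of the epididymis sheds into its lumen. Vesicles were recovered from the luminal fluid of the caput, corpus and cauda, which spermatozoa pass in this order, in male Swiss mice aged 8 weeks. The vessels had been perfused with saline to limit blood, and the vesicles were purified on a density gradient. Each segment was represented by 3 libraries, and the RNA of several animals went into each library. The replicates were therefore separate pools, and the p-values below measure the spread between pools and not between single mice.

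The X-linked cluster to which these miRNAs belong is known for its preferential expression in the testis, where its members have been found in both germ cells and Sertoli cells. Its genes are recent duplicates of one another and change quickly between species. A miRNA guides its silencing complex to messenger RNAs through its seed, bases 2 to 8 of the mature strand, and each hairpin precursor can give a mature strand from its 5p and from its 3p arm. miR-470-5p is known from embryonic stem cells, where it targets the pluripotency factors Nanog and Oct4, and miR-471-5p has been studied in Sertoli cells.

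The 8 distinct mature sequences are given first because their seeds and single base differences define which miRNAs could share targets or reads. They are RefSeq sequences of the GRCm38.p6 assembly, found for all 10 names, and are written 5′ to 3′ with the seed in capitals.
miR-465a-5p: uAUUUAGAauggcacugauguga
miR-465b-5p: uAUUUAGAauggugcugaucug
miR-465c-5p: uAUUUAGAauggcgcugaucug
miR-465a-3p, miR-465b-3p and miR-465c-3p: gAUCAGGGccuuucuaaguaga
miR-463-5p: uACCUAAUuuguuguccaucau
miR-470-5p: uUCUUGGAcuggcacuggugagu
miR-470-3p: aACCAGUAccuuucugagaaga
miR-471-5p: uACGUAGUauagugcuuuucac

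These sequences carried 6 different seeds. The 5p strands of miR-465a, miR-465b and miR-465c shared the seed AUUUAGA, and no other seed occurred in more than 1 distinct sequence of the group. Among the 299 miRNAs of the table with a RefSeq sequence under their name, 0 miRNAs outside the group had any of these 6 seeds. Counting positions from 1 at the 5′ end, miR-465b-5p differed from miR-465c-5p by a single substitution, U13C. miR-465a-5p differed from miR-465c-5p by A14G and G20C over the 22 bases compared, and from miR-465b-5p by C13U, A14G and G20C. A read that covers position 13 can therefore separate miR-465b-5p from miR-465c-5p, whereas no read of the mature 3p strand can separate the 3 miR-465 genes. How the authors divided reads that match several mature sequences is not given in the sources used here.

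The hairpins lay on the minus strand of the X chromosome, within chrX:66792595-66839125 of GRCm38, a stretch of 46.5 kb. Mir471 opened the stretch at its low-coordinate end, followed by Mir463 at 6.63 kb and Mir470 at 21.4 kb, and 6 miR-465 hairpins closed it, spaced 3.25 to 3.32 kb apart. miR-465b-5p and miR-465c-5p were each encoded by 2 hairpins, and the miR-465 3p sequence was present in 5 of them. GENCODE M21 annotated 14 genes between the outermost hairpins, all 14 of them miRNAs, and 0 of the hairpins lay inside another gene. The nearest protein-coding genes were Slitrk2, 131 kb away on one side, and Gm1140, 844 kb away on the other, so the cluster is intergenic. The hairpins of miR-465b and miR-465c are printed because the 2 precursors share 1 arm and differ in the other, with the mature strands in capitals.
Mir465b-1, chrX:66829202-66829280, minus strand: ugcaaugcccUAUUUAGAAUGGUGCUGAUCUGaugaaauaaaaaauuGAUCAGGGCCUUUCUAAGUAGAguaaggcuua
Mir465c-1, chrX:66825955-66826035, minus strand: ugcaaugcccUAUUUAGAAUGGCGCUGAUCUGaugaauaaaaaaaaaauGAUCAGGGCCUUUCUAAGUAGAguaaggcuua

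The deposited values were CPM, in which the reads of each miRNA are scaled to a fixed number of miRNA reads per library. Every value was a whole multiple of what 1 read is worth, from which the reads behind each value were recovered. The libraries held 1548581 to 11306605 such reads, and the caput libraries, with at least 8274421 reads each, were deeper than the rest. The floor of detection was set at 3 reads per library, which lay between 0.265 and 1.94 CPM, and this limit covers counting error only. Caput replicate 2 had a TMM factor, a scaling factor that leaves out extreme miRNAs, of 0.478, against 0.753 to 1.29 in the other libraries, which changes values set against it. Statements below that libraries overlap or stand apart refer to the deposited CPM, and can change with this scaling. In such bulk samples fewer vesicles of one origin and less RNA per vesicle cannot be told apart.

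Together the 8 measurements were a small part of the cargo. Their summed level was 98.3, 102 and 68.3 CPM in the 3 caput libraries, 351, 472 and 380 CPM in the corpus and 497, 488 and 800 CPM in the cauda. The sums of the 3 segments did not overlap, and the means were 89.6 ± 18.6 CPM for the caput, 401 ± 63.0 CPM for the corpus and 595 ± 178 CPM for the cauda (SD, n = 3). miR-470-5p and miR-465c-5p took most of this sum in the caput and corpus, 75.2% to 87.2% of it in each library. In the cauda they took 60.2% to 66.8%, below every caput and corpus library.

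**Figure D1:**
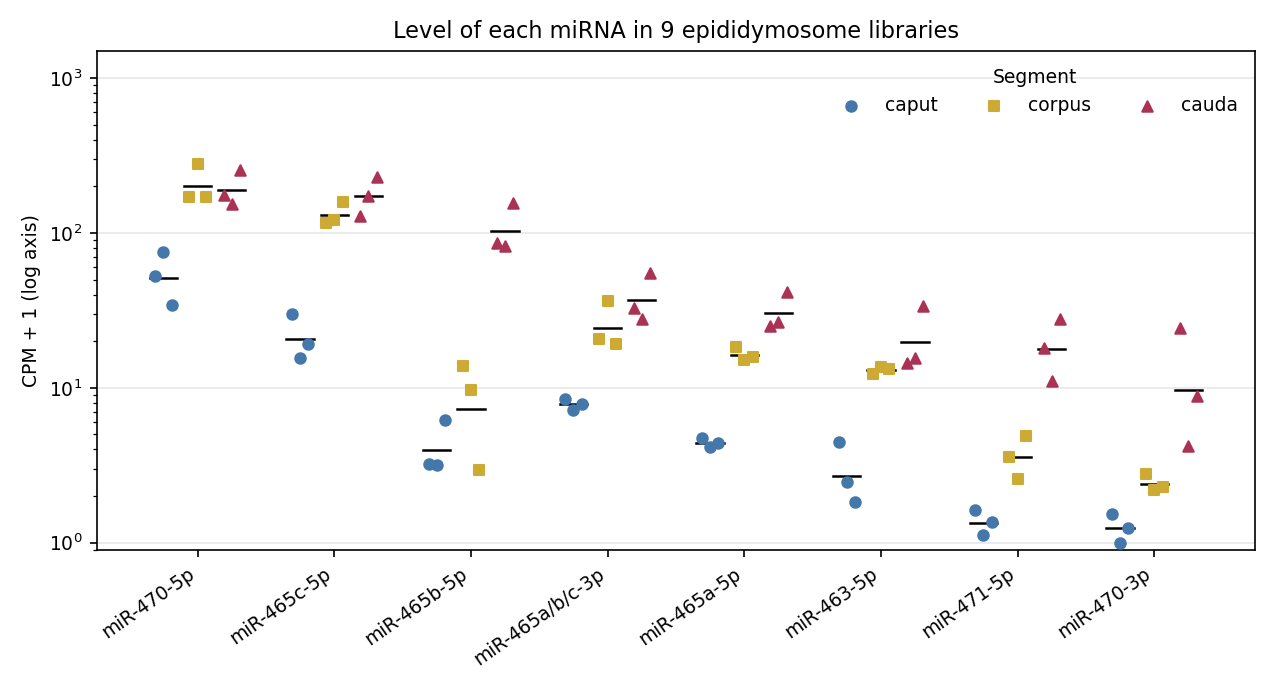
Level of each miRNA as CPM + 1 on a log axis, with 1 point per library (circles caput, squares corpus, triangles cauda) and a bar at the mean of log2(CPM + 1). miR-465a/b/c-3p stands for 3 names with near-identical values. For all 8 measurements the 3 cauda points lie above the 3 caput points. The corpus points lie near the cauda for miR-470-5p and miR-465c-5p and well below it for miR-465b-5p and miR-471-5p. For miR-470-3p they lie below the cauda, with the closest points at 1.78 CPM in the corpus and 3.20 CPM in the cauda.

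miR-470-5p was the most abundant miRNA of the group. It was measured at 51.4, 74.6 and 33.2 CPM in caput libraries, 170, 277 and 170 CPM in corpus libraries and 175, 154 and 253 CPM in cauda libraries. All corpus and cauda libraries lay above all caput libraries, and corpus and cauda overlapped. miR-465c-5p stood at 28.9, 14.5 and 18.1 CPM in caput libraries, 115, 121 and 158 CPM in corpus libraries and 127, 172 and 229 CPM in cauda libraries, with the same pattern of overlap.

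The 3p strand shared by the miR-465 genes was measured under the name miR-465a-3p at 7.52, 6.16 and 6.86 CPM in caput libraries, 19.7, 35.2 and 18.1 CPM in corpus libraries and 32.0, 27.0 and 54.4 CPM in cauda libraries. miR-465b-3p had the same values in every library. miR-465c-3p was lower in 3 libraries only, with 57 against 58 reads in caput replicate 3, 58 against 59 reads in cauda replicate 2 and 320 against 321 reads in cauda replicate 3. The caput stood apart from both later segments, and corpus replicate 2 lay above 2 of the cauda libraries. miR-465a-5p was found at 3.71, 3.14 and 3.43 CPM in caput libraries, 17.4, 14.1 and 14.9 CPM in corpus libraries and 24.0, 25.6 and 40.4 CPM in cauda libraries. Its 3 segments did not overlap.

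miR-463-5p was found at 3.45, 1.45 and 0.828 CPM in caput libraries, 11.3, 12.5 and 12.3 CPM in corpus libraries and 13.5, 14.6 and 32.9 CPM in cauda libraries. Its segments did not overlap, although the highest corpus and the lowest cauda library differed by about 1 CPM and cauda replicate 3 stood well above the others.

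The remaining 3 miRNAs were scarce before the cauda. miR-465b-5p was measured at 2.21, 2.18 and 5.21 CPM in caput libraries, 12.8, 8.62 and 1.94 CPM in corpus libraries and 85.0, 81.5 and 156 CPM in cauda libraries. Its corpus libraries lay both above and below the caput range, corpus replicate 3 holding only 3 reads of it, and its cauda libraries were all far above both. miR-471-5p was measured at 0.619, 0.121 and 0.355 CPM in caput libraries, 2.58, 1.57 and 3.87 CPM in corpus libraries and 17.0, 10.1 and 27.0 CPM in cauda libraries, where its reads in the 3 libraries were 34, 22 and 159. Its segments did not overlap, but the 3 caput libraries together held only 11 of its reads and the corpus libraries 26. miR-470-3p, the other arm of the miR-470 hairpin, was listed at 0.531, 0 and 0.237 CPM in caput libraries, 1.78, 1.17 and 1.29 CPM in corpus libraries and 23.5, 3.20 and 7.80 CPM in cauda libraries. It rested on 8 caput reads and 16 corpus reads in all, and cauda replicate 1 stood far above the other cauda libraries.

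Mature miRNAs are nearly equal in length, 22 or 23 bases here, so that no correction for length was made. Whether different sequences entered the libraries equally well was not tested. Orders of different miRNAs or arms in this report are therefore orders of reads. In the caput the order of the means was miR-470-5p with 53.1 CPM, miR-465c-5p with 20.5, the miR-465 3p strand with 6.85, miR-465a-5p with 3.43, miR-465b-5p with 3.20, miR-463-5p with 1.91, miR-471-5p with 0.365 and miR-470-3p with 0.256. The libraries of miR-465a-5p, miR-465b-5p and miR-463-5p overlapped, as did those of miR-471-5p and miR-470-3p. In the cauda the order was the same for miR-470-5p with 194 ± 52.3 CPM and miR-465c-5p with 176 ± 50.8 CPM (SD, n = 3), whose libraries overlapped. miR-465b-5p came next with 107 ± 41.9 CPM, overlapping miR-465c-5p but not the miR-465 3p strand, which had 37.8 ± 14.6 CPM. It was followed by miR-465a-5p with 30.0 ± 9.02 CPM, miR-463-5p with 20.3 ± 10.9 CPM, miR-471-5p with 18.0 ± 8.49 CPM and miR-470-3p with 11.5 ± 10.6 CPM, each of which overlapped its neighbours. These overlaps are of ranges over libraries. Within every cauda library miR-465c-5p was above miR-465b-5p, and the 3p strand above miR-465a-5p, which was above miR-463-5p. The other neighbours changed order, miR-470-5p and miR-465c-5p in cauda replicate 2, and miR-463-5p, miR-471-5p and miR-470-3p in cauda replicate 1.

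Segments were compared with limma on log2(CPM + 1), fitted to all 358 miRNAs in all 9 libraries. p-values were adjusted by the Benjamini-Hochberg method over the miRNAs that averaged 10 CPM or more in either segment. A miRNA was counted as changed when its adjusted p was under 0.05 and its level changed by 2-fold or more. Fold changes on this scale understate the change of miRNAs with few reads. The 3 comparisons share libraries, and their results are therefore not independent.

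From the caput to the corpus, 7 of the 10 miRNAs were abundant enough to be tested and all 7 were higher in the corpus. Of the 321 miRNAs tested in this comparison, 19.0% were called higher and 3.43% lower. Only miR-470-5p and miR-465c-5p had reached 10 CPM in the caput, and the other 5 names were tested because of their corpus level alone, so that they could only differ in this direction and their number describes the group without supporting it. miR-465c-5p rose 6.33-fold (log2 fold change 2.66 ± 0.42 SE, limma adjusted p = 0.00047) and miR-470-5p 3.92-fold (1.97 ± 0.43, adjusted p = 0.0041). miR-463-5p rose 4.80-fold (2.26 ± 0.49, adjusted p = 0.0041), miR-465a-5p 3.71-fold (1.89 ± 0.42, adjusted p = 0.0046) and the miR-465 3p strand 3.10-fold (1.63 ± 0.45, adjusted p = 0.015).

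For all 7 tested names no caput library reached the level of a corpus library, as was so, with the corpus higher, for 29.3% of the miRNAs tested. The median log2 fold change was 1.89 over the 7 names, in which the miR-465 3p strand counts 3 times, and 0.47 over all miRNAs tested. Both figures for the group include the 5 names tested because of their corpus level alone, and are partly set by that choice. With near-identical names merged, 5 of 5 measurements were called. With TMM normalization, which brought the median of all miRNAs to -0.09, the 7 names remained called, with log2 fold changes of up to 2.10 and adjusted p-values up to 0.046, and 13.1% of all miRNAs were called higher. Over all miRNAs this scaling turned 61 higher and 11 lower calls into 42 and 49. Without corpus replicate 2, the 3 names of the miR-465 3p strand lost their call (log2 fold change 1.34 and limma adjusted p = 0.096 for miR-465a-3p) and 4 of the 7 remained. With a pseudocount of 10 CPM only miR-465c-5p and miR-470-5p were called, since miR-463-5p (0.89), miR-465a-5p (0.92) and the 3 names of the miR-465 3p strand (0.99 for miR-465a-3p) were below the 2-fold limit.

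The 3 scarce miRNAs were below 10 CPM in both the caput and the corpus. Without the filter on low values, their log2 fold changes were 0.87 ± 0.56 for miR-465b-5p (limma adjusted p = 0.29), 0.96 ± 0.59 for miR-470-3p (adjusted p = 0.27) and 1.40 ± 0.50 for miR-471-5p (adjusted p = 0.062). None of these passed the threshold. Corpus replicates 2 and 3 held 22 and 3 reads of miR-465b-5p and 3 and 2 reads of miR-470-3p.

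**Figure D2:**
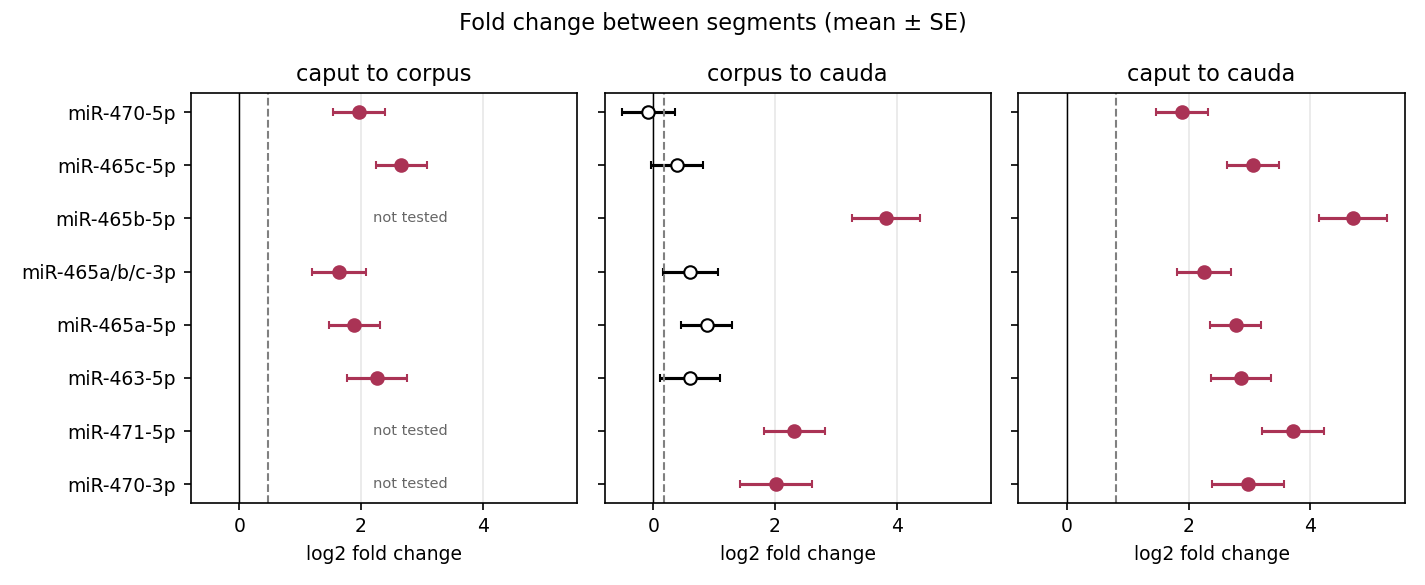
log2 fold change on the log2(CPM + 1) scale with its standard error, for the 8 measurements in each comparison of segments. Filled red points passed the threshold, open points did not, and the dashed line is the median of all miRNAs tested (0.47, 0.18 and 0.81 from left to right). The 3 miRNAs not tested from caput to corpus are those called higher from corpus to cauda. They were tested there because of their cauda level alone and could only be called higher.

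From the corpus to the cauda only some names passed the threshold, which is not a test of whether the names differ from each other. miR-465b-5p rose 14.2-fold (log2 fold change 3.83 ± 0.56 SE, limma adjusted p = 0.00012), miR-471-5p 4.99-fold (2.32 ± 0.50, adjusted p = 0.0038) and miR-470-3p 4.03-fold (2.01 ± 0.59, adjusted p = 0.028). The other 7 names did not pass the threshold, with log2 fold changes of -0.08 ± 0.43 for miR-470-5p, 0.39 ± 0.42 for miR-465c-5p, 0.60 ± 0.49 for miR-463-5p, 0.61 ± 0.45 for the miR-465 3p strand and 0.88 ± 0.42 for miR-465a-5p (limma adjusted p from 0.16 to 0.91). All 10 names were tested, 3 were higher and 0 lower, against 14.0% higher and 4.97% lower among the 342 miRNAs tested. The 3 that rose had entered through their cauda level alone and could only be called higher, so their number describes the group without supporting it. The other 7 names, none of them called, had reached 10 CPM in both segments.

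Libraries did not overlap, with the cauda higher, for 5 of the 10 names, the 3 that rose together with miR-463-5p and miR-465a-5p, and for 30.1% of all miRNAs tested. The median log2 fold change was 0.61 over the 10 names, in which the miR-465 3p strand counts 3 times, and 0.18 over all. Both figures for the group include the 3 names tested because of their cauda level alone. With near-identical names merged, 3 of 8 measurements were called. With TMM normalization the same 3 miRNAs were called, while 16.4% of all miRNAs were called higher. The rise of miR-470-3p was the least certain of the 3. It lost its call with limma-voom on the recovered reads (log2 fold change 2.37, adjusted p = 0.065) and without corpus replicate 1, 2 or 3 (adjusted p from 0.053 to 0.096). With a pseudocount of 10 CPM its log2 fold change was 0.80, below the 2-fold limit, and without cauda replicate 1 it no longer reached 10 CPM in the cauda. Pooled over libraries, its reads were 6.38 times more frequent in the cauda than in the corpus, with an exact 95% interval of 3.74 to 11.6 for counting error only. For miR-471-5p this ratio was 8.44, with an interval of 5.60 to 13.2.

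From the caput to the cauda all 10 names were called higher, where 38.7% of the 349 miRNAs tested were called higher and 10.3% lower. Of the 10 names, 8 were tested because of their cauda level alone and could only be called higher, so the count describes the group without supporting it. miR-465b-5p rose 26.0-fold (log2 fold change 4.70 ± 0.56 SE, limma adjusted p = 6.8e-06) and miR-471-5p 13.1-fold (3.72 ± 0.50, adjusted p = 2.9e-05). The fold changes of the remaining 8 names lay between 3.71 for miR-470-5p (1.89 ± 0.43, adjusted p = 0.0020) and 8.32 for miR-465c-5p (3.06 ± 0.42, adjusted p = 3.1e-05). miR-463-5p rose 7.28-fold, miR-470-3p 7.82-fold, miR-465a-5p 6.83-fold and the miR-465 3p strand 4.74-fold. The order of the largest changes differed between settings. With limma-voom on the recovered reads the log2 fold changes were 5.54 ± 0.75 for miR-471-5p, 5.24 ± 0.96 for miR-470-3p and 5.15 ± 0.59 for miR-465b-5p. Pooled over libraries, reads were 54.3 times more frequent in the cauda for miR-471-5p (exact 95% interval for counting error 29.8 to 111), 40.5 times for miR-465b-5p (32.5 to 50.9) and 34.8 times for miR-470-3p (17.0 to 82.7), and these intervals overlap. With a pseudocount of 10 CPM miR-470-3p had a log2 fold change of 0.96 and was not called, while the other 9 names were.

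For all 10 names no caput library reached the level of a cauda library, as was so, with the cauda higher, for 42.4% of the miRNAs tested. The median log2 fold change was 2.82 over the 10 names, in which the miR-465 3p strand counts 3 times, and 0.81 over all miRNAs tested. Both figures for the group include the 8 names tested because of their cauda level alone, and are partly set by that choice. With near-identical names merged, 8 of 8 measurements were called. With TMM normalization, which brought the median of all miRNAs to 0.13, 9 of the 10 names were called, and 24.9% of all miRNAs. The exception was miR-470-5p, whose log2 fold change became 1.22 (limma adjusted p = 0.059), and under median-of-ratios scaling 1.17 (adjusted p = 0.066). Over all miRNAs TMM normalization turned 135 higher and 36 lower calls into 87 and 71.

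Ratios of reads within a library do not depend on how libraries are scaled. For every 100 reads of miR-465c-5p there were 7.65, 15.0 and 28.8 reads of miR-465b-5p in caput libraries, 11.1, 7.12 and 1.23 in corpus libraries and 66.7, 47.5 and 68.1 in cauda libraries. The cauda libraries stood apart from all 6 others, whereas caput and corpus overlapped. The mean log2 ratio, with 1 CPM added to each value, was -2.38 ± 0.80 for caput, -4.17 ± 1.41 for corpus and -0.73 ± 0.29 for cauda libraries (SD, n = 3). An exact two-sided permutation test gave p = 0.10 for the caput against the cauda and for the corpus against the cauda, the smallest p that 3 against 3 libraries allow, and 0.15 after adjustment over the 3 comparisons of segments. miR-465b-5p thus made up 6.35% to 19.5% of the miR-465 5p reads in the caput, 1.11% to 8.79% in the corpus and 29.2% to 36.6% in the cauda. The share of miR-465a-5p in the cauda, 9.20% to 10.1%, lay within its range in the corpus, 8.52% to 12.0%, and below its range in the caput, 10.7% to 15.9%. Such shares of a fixed total fall when another member takes more of it. For every 100 reads of miR-465c-5p there were 12.8, 21.7 and 19.0 reads of miR-465a-5p in caput libraries. The numbers were 15.2, 11.7 and 9.43 in corpus libraries and 18.8, 14.9 and 17.6 in cauda libraries, the last within the caput range.

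**Figure D3:**
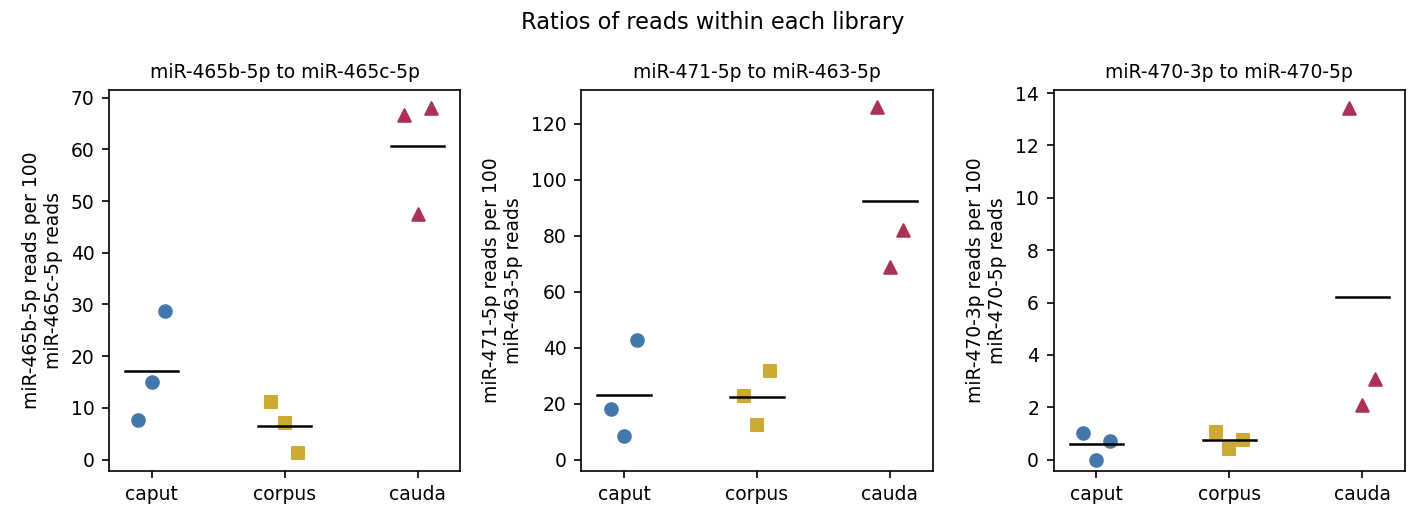
Reads of 1 miRNA per 100 reads of another in the same library, with 1 point per library and a bar at the mean of each segment. Left, miR-465b-5p to miR-465c-5p, which differ by 1 base. Middle, miR-471-5p to miR-463-5p, where the caput points rest on 7, 1 and 3 reads of miR-471-5p and the corpus points on 16, 4 and 6. Right, the 3p to the 5p arm of miR-470, where a single cauda library at 13.4 stands above the other cauda libraries at 2.08 and 3.08. In all 3 panels the cauda points lie above the caput and corpus points.

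The arms of miR-465 were compared as the log2 of 5p over 3p reads, with limma over the 64 precursors whose 2 arms each averaged 10 CPM or more. For every 100 reads of the 3p strand, miR-465b-5p had 29.4, 35.3 and 75.9 reads in the caput and 266, 302 and 286 in the cauda. Its 5p strand was thus scarcer than the 3p strand in every caput library and more abundant in every cauda library. The ratio rose by 2.58 ± 0.53 on the log2 scale (limma adjusted p = 0.013), the only one of the 3 miR-465 precursors tested to be called, where 15.6% of all precursors were called. Without cauda replicate 2 the change was 2.53 and the adjusted p 0.053. The ratio changed by 0.60 ± 0.36 for miR-465a (adjusted p = 0.24) and by 0.77 ± 0.41 for miR-465c (adjusted p = 0.20). The 3 ratios use the same 3p reads, so they differ only through their 5p strands, and the ratio for each gene cannot be read as the arm choice of that gene.

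The arm pair of miR-470 did not enter this test, because miR-470-3p was too scarce. For every 100 reads of miR-470-5p there were 1.03, 0 and 0.712 reads of miR-470-3p in caput libraries, 1.05, 0.424 and 0.758 in corpus libraries and 13.4, 2.08 and 3.08 in cauda libraries. The 5p strand was the more abundant arm of miR-470 in all 9 libraries. With a filter of 1 CPM in place of 10, its 5p to 3p ratio changed by -1.74 ± 0.65 from caput to cauda (limma adjusted p = 0.085). For miR-471-5p and miR-463-5p, whose hairpins have that of miR-741 between them, there were 8.33 to 42.9 reads of the first per 100 of the second in the caput, 12.5 to 31.6 in the corpus and 68.8 to 126 in the cauda. The caput ratios rested on 7, 1 and 3 reads of miR-471-5p against 39, 12 and 7 of miR-463-5p. Those of the corpus rested on 16, 4 and 6 against 70, 32 and 19.

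The other miRNAs of the X-linked testis cluster were followed from a list of names, of which 9 were in the table, among them miR-881-3p, miR-871-3p and miR-743b-3p as the most abundant. From caput to corpus, 8 of them were tested and 8 were called higher (19.0% of all miRNAs), 4 of which were tested because of their corpus level alone. From caput to cauda 9 of 9 were called higher (38.7% of all miRNAs), 5 of them tested because of their cauda level alone, and these could only be called higher. From corpus to cauda 0 of 9 were called by limma in either direction, 0 had an unadjusted p under 0.05, 0 were called by limma-voom, and the median log2 fold change was 0.15. For 2 of the 9, miR-871-5p and miR-881-3p, the cauda libraries nevertheless lay above all corpus libraries, with log2 fold changes of 0.90 and 0.69. miR-881-3p averaged 28.5 ± 5.16 CPM in the caput, 188 ± 36.4 CPM in the corpus and 308 ± 88.8 CPM in the cauda. miR-871-3p averaged 58.1 ± 17.3, 180 ± 46.5 and 159 ± 12.7 CPM, and miR-743b-3p 18.6 ± 6.33, 91.7 ± 6.76 and 95.8 ± 67.9 CPM (SD, n = 3). Whether miR-465b-5p, miR-471-5p and miR-470-3p differ from these miRNAs in their corpus to cauda change was not tested.

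**Figure D4:**
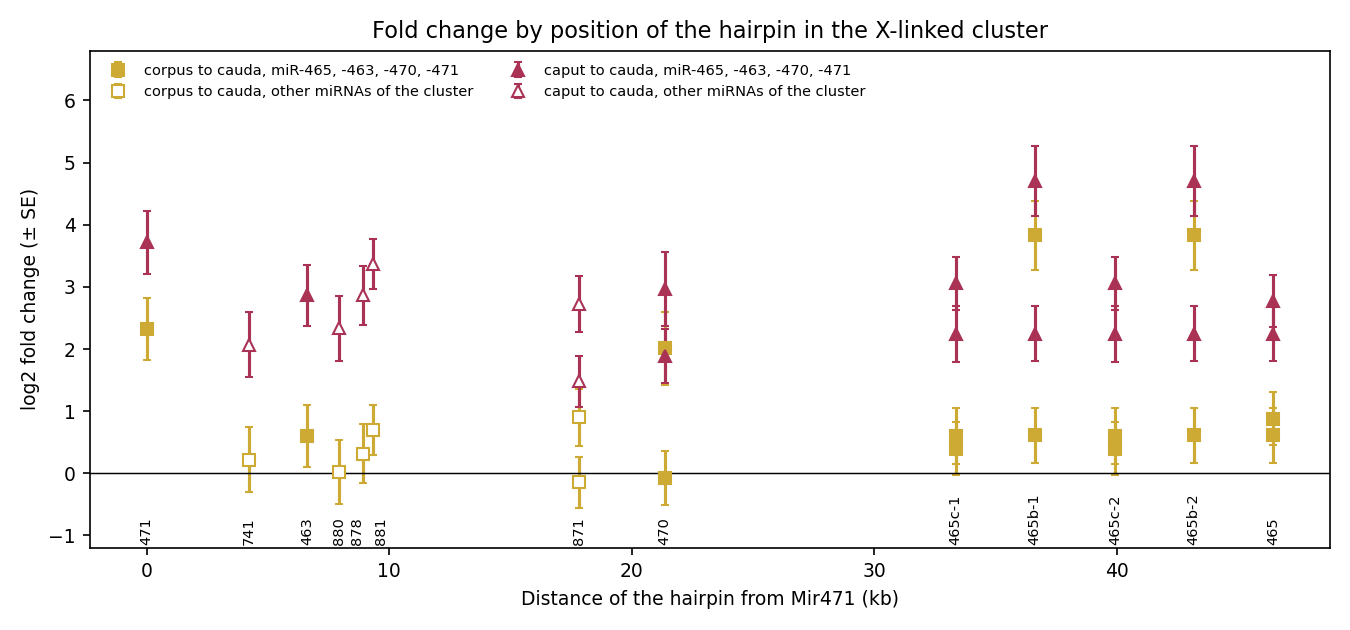
log2 fold change with its standard error against the distance of the hairpin from Mir471 in kb, along the coordinates of the X chromosome, with hairpin names at the bottom. Squares are corpus to cauda and triangles caput to cauda, filled for the miR-465, miR-463, miR-470 and miR-471 miRNAs and open for other miRNAs of the same stretch. A mature miRNA with several hairpins is drawn at each of them. All triangles lie above 1, whereas the squares above 2 belong to miR-471-5p, miR-470-3p and miR-465b-5p.

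miR-465b-5p, with its log2 fold change of 3.83, comes from 2 hairpins that alternate along the X chromosome with those of miR-465c-5p, with 0.39, at spacings of 3.25 to 3.32 kb. Mir463, whose 5p strand had a log2 fold change of 0.60 and was not called, lies 6.63 kb from Mir471, whose 5p strand rose by 2.32.

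The miRNAs outside the group whose levels over the 9 libraries were most like the summed level of the group were chosen by Pearson's correlation of log2(CPM + 1), given here as a description. They were miR-881-3p (r = 0.98), miR-878-5p (0.96), miR-871-5p (0.96), miR-880-3p (0.93) and miR-1981-5p (0.91). The first 4 are encoded between Mir463 and Mir470, at 9.35, 8.91, 17.8 and 7.94 kb from Mir471. The 9 points of each correlation share their libraries and the difference between segments. Within the group, r over the 9 libraries was 0.97 between miR-463-5p and miR-465c-5p and 0.90 between miR-465b-5p and miR-471-5p, and the lowest was 0.55 between miR-465b-5p and miR-470-5p.

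Markers of other cells moved between the same segments. Of the miRNAs listed as germ cell markers, from the miR-34b, miR-34c and miR-449 families, 0 of 5 were called from caput to corpus by limma or limma-voom. Of these, 1 had an unadjusted p under 0.05, while the X-linked miRNAs rose and 19.0% of all miRNAs were called higher. The study also reports miR-34c in the epididymal epithelium, higher in the caput than in the cauda, so it is not particular to germ cells. From corpus to cauda 2 of these 5 miRNAs were called higher (14.0% of all miRNAs), and from caput to cauda 5 of 5 (38.7% of all miRNAs). From caput to cauda 1 of the 5 was tested because of its cauda level alone. Their summed level ranged from 199 to 879 CPM in the caput, 417 to 475 CPM in the corpus and 1611 to 1952 CPM in the cauda, and the most abundant, miR-34c-5p, miR-34b-3p and miR-34b-5p, averaged 550, 21.1 and 26.9 CPM in the caput and 1469, 195 and 81.8 CPM in the cauda. Between corpus and cauda, where miR-465b-5p, miR-471-5p and miR-470-3p rose, 5 of 5 striated muscle miRNAs, 4 of 4 smooth muscle miRNAs, 3 of 5 red blood cell miRNAs and 1 of 3 leukocyte miRNAs were called higher as well, against 14.0% of all miRNAs. Of these lists, 4 striated muscle, 1 smooth muscle, 2 red blood cell and 1 leukocyte miRNAs were tested because of their cauda level alone and could only be called higher. limma-voom called 4 of 5, 3 of 4, 3 of 5 and 0 of 3. Of the epithelial miRNAs, 0 of 8 were called by limma or limma-voom, with 1 at an unadjusted p under 0.05. The striated muscle sum, led by miR-133a-3p, miR-133b-3p and miR-208b-3p, ranged from 121 to 167 CPM in the corpus and from 1412 to 4166 CPM in the cauda. The red blood cell sum, led by miR-486a-5p, its copy miR-486b-5p and miR-451a, ranged from 390 to 1106 CPM in the corpus and from 3030 to 4365 CPM in the cauda. This sum and the list of 5 both count miR-486a-5p and its copy separately. miR-486a-5p averaged 303 CPM in the corpus and 1749 CPM in the cauda. miR-451a averaged 197 ± 149 CPM in the corpus and 196 ± 167 CPM in the cauda (SD, n = 3). The smooth muscle sum, led by miR-143-3p, miR-145a-5p and miR-145a-3p, ranged from 88423 to 121412 CPM in the corpus and from 291676 to 354786 CPM in the cauda. The part of these cells in the cauda rise of the 3 miRNAs was not tested. Immunoblots in the study found no haemoglobin, a blood protein, and no ALOX15, a marker of cytoplasmic droplets, in the vesicles.

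From caput to corpus, where 7 names of the group rose, 2 of 8 epithelial miRNAs and 1 of 3 tested red blood cell miRNAs were called higher. Of all miRNAs tested in this comparison, 19.0% were called higher. Neither limma nor limma-voom called any of the 4 smooth muscle miRNAs, the 1 striated muscle miRNA and the 2 leukocyte miRNAs tested, of which 1, 0 and 1 had an unadjusted p under 0.05. The epithelial sum, led by miR-141-3p, miR-429-3p and miR-200a-3p, ranged from 21061 to 31929 CPM in the caput, 72124 to 84357 CPM in the corpus and 44687 to 61155 CPM in the cauda. The leukocyte sum, led by miR-223-3p, miR-150-5p and miR-155-5p, ranged from 45.6 to 91.0 CPM in the caput, 106 to 132 CPM in the corpus and 96.6 to 274 CPM in the cauda. Of all the lists, only miR-208b-3p in the caput and miR-133a-5p in the caput and corpus, both of striated muscle, were listed at 0 in a library. The part of these cells in the rise to the corpus was not tested.

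The sequences were also read for features that the choice by name had not used. The median GC content was 38.6% over the 8 distinct sequences, from 31.8% in miR-463-5p to 52.2% in miR-470-5p, and 45.5% over the 299 miRNAs with a sequence. The letters GGAG and CCCU, both searched in the 3′ part of the mature strand from its middle base on, were found in 0 of the 10, against 2.34% and 2.68% of the 299 miRNAs. This says only that these letters are not in that window.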

How the data were processed

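Per the labels and the methods of the study, total RNA of epididymosomes was pooled from several mice per library and prepared with an Illumina small RNA kit. The authors screened the reads for contaminants with cutadapt and Bowtie, used the miRDeep2 quantifier to count reads on known mature miRNAs, normalised them by library size, and the deposited values are CPM. The submitters' processing notes name CASAVA 1.8.2, Bowtie 1.1.1 and limma. The miRBase release and genome build are not given in the sources used here, so coordinates are those of the reference.

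Since CPM values rise in steps of 1 read, the reads behind each were recovered, and 100% were whole within 0.05 of a read. log2(CPM + 1) was tested in R 4.3 with limma 3.58, using lmFit and then eBayes with trend, for segment alone. Arm ratios had a pseudocount of 0.5 CPM. TMM trimmed 30% of the log ratios and 5% of the mean levels on each side. Both tests were checked on simulated data. The comparisons had been planned as tests on raw counts and were run on CPM instead. Tables and plots were made with Python 3.11, pandas 2.3 and matplotlib 3.10.

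The miRNAs, marker lists, comparisons and alternatives were chosen with earlier results of these data known. All miRNAs of the group are named, as are the 5 most correlated miRNAs and the 3 most abundant miRNAs of each list. miR-133a-5p was named after its values were seen. Replicates are those of the labels.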

Additional observations from a re-analysis of the deposited data

How the results depend on the processing

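The count of miRNAs called from caput to corpus was 2 of 7 with a pseudocount of 10 CPM and 2 of the 2 tested with a filter of 50 CPM, and 4 to 7 with single libraries left out. With a pseudocount of 10 CPM miR-470-3p also lost its call from corpus to cauda, where 2 names remained, and from caput to cauda, where 9 remained. From corpus to cauda 1 of the 3 tested was called with a filter of 50 CPM, and from caput to cauda 3 of 3. These filters tested fewer miRNAs by construction. With 1 library left out the arm ratio count was 0 to 1, and no miR-465 precursor passed a filter of 50 CPM. The corpus to cauda change of miR-470-5p, which was not called, turned sign without corpus replicate 2 or without cauda replicate 2, and ranged from -0.29 to 0.15 on the log2 scale over the libraries left out. The cause of these changes was not tested.

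All other counts, namely with TMM normalization, median-of-ratios scaling, limma-voom, a pseudocount of 0.5 CPM, no filter, the 6 libraries of a comparison alone, no fold requirement and merged near-identical names, were within 1.5 times those reported. The tests reported were run without pairing, and whether libraries with the same replicate number came from the same pool of animals was not settled. Deviations of same-numbered libraries correlated between -0.21 and 0.41, over 0.1 in 6 of 9 pairs, and the best match carried the same number in 10 of 18 lookups. The highest correlation between libraries of different numbers was 0.18. With the replicate number as a block, 7, 3 and 10 of the miRNAs were called from caput to corpus, corpus to cauda and caput to cauda, and 1 arm ratio. Tests with edgeR and DESeq2 had been planned and were not run, and limma-voom was the only test made on the recovered reads. miR-470-3p and miR-471-5p rested on the fewest reads, 8 and 11 over the 3 caput libraries, the deepest of the study.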
